A study of Mus musculus with 4 samples.

Results

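The 9 genes described here encode homeodomain transcription factors of the MEIS, PBX and Iroquois families, namely *Meis1*, *Meis2*, *Meis3*, *Pbx2*, *Pbx3*, *Irx1*, *Irx3*, *Irx4* and *Irx5*. They are 9 of the 21951 protein-coding genes of the GENCODE M21 annotation of the mouse. The data are peaks of open chromatin that differed between wild-type (WT) and *Smyd1-KO* embryonic hearts. A peak was counted for a gene when it overlapped the gene body or lay within 10 kb of one of its transcription start sites (TSSs). By this rule 24 of the 25745 *Smyd1-KO*-enriched peaks, and 0 of the 106 WT-enriched peaks, belonged to these genes.

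ATAC-seq, which marks the DNA that the Tn5 transposase can reach in nuclei, was applied to whole hearts at embryonic day 9.5. Each genotype had 2 libraries, each made from 4 pooled hearts, from which 40000 viable cells were taken. WT hearts carried no engineered allele that the labels name, and *Smyd1-KO* hearts lacked the heart and skeletal muscle histone methyltransferase SMYD1 in every cell, as embryos homozygous for a mutated allele of a line kept as *Smyd1+/-*. Embryos of both sexes were used. The lists pool both libraries of a genotype and keep peaks with at least a 2-fold difference in tags, so the spread between replicates is unknown and no genotype difference is tested. The value given for each peak, called the score here, is the pooled tags counted in that peak in the *Smyd1-KO* libraries. It is neither a fold change nor a level in WT hearts. The submitters' design text gives a depth of 100000000 reads for each library, but the number mapped in each cannot be read from the lists, and peaks that were open alike in both genotypes were not analysed here. At the *Smyd1* gene itself the rule found 2 *Smyd1-KO*-enriched peaks and 0 WT-enriched peaks, so the lists do not check the genotype. Of 5 cardiomyocyte genes (*Tnnt2*, *Myh6*, *Actc1*, *Nkx2-5* and *Myl7*), 5 had a *Smyd1-KO*-enriched peak, as did 62.6% of all protein-coding genes. Of the genes of other cells in the heart tube, 1 of 2 endothelial, 2 of 2 proepicardial and 1 of 2 erythroid genes had one, and the cell types behind a peak cannot be told apart in whole hearts.

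MEIS, PBX and Iroquois proteins belong to the TALE class, whose homeodomain carries an extra loop of amino acids. MEIS and PBX proteins bind each other and act as cofactors of HOX proteins and of other factors, and mice that lack *Meis1*, *Meis2* or several *Pbx* genes have defects of the cardiac outflow tract. Iroquois genes lie in clusters and are expressed in chamber patterns in the heart: *Irx4* marks the ventricles, *Irx3* the trabeculae and the later conduction system, and *Irx5* the endocardial side of the ventricular wall.

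The sequences that follow are, for each gene, the strongest peak that covers no exon of a coding transcript in GENCODE or RefSeq. The RefSeq exons were added after the peaks were seen, and they replaced *Meis2* peak 4 (score 343.5), which covers no GENCODE coding exon, by *Meis2* peak 1 (score 205.5). The sequences are shown because, of the peaks outside messenger RNA, they had the highest score at their gene. Peaks of a gene are numbered by increasing coordinate on mm10, and each sequence is the plus strand of GRCm38, the same assembly, read 5′ to 3′. Capitals mark any match to the strings given further below. *Meis1* peak 4 lies at chr11:18963813-18963961 in intron 7 of the gene. *Meis2* peak 1 lies at chr2:115859435-115859583, past the 3′ end of the gene. *Meis3* peak 1 lies at chr7:16172270-16172418, upstream of the gene. *Pbx2* peak 3 lies at chr17:34603751-34603899, just before the start of *Rnf5*, on the far side of that gene from *Pbx2*. *Pbx3* peak 4 lies at chr2:34372763-34372911, in the promoter region. *Irx5* peak 1 lies at chr8:92355980-92356128, on the start of the long non-coding RNA gene *Crnde*. *Irx1* and *Irx3* had peaks on exons only, and *Irx4* had no peak.
Meis1 peak 4: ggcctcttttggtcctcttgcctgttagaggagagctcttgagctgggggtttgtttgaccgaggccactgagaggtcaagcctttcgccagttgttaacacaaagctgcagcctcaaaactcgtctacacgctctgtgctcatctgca
Meis2 peak 1: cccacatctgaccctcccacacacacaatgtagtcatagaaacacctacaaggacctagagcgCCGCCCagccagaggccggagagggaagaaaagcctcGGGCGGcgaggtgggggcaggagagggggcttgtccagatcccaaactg
Meis3 peak 1: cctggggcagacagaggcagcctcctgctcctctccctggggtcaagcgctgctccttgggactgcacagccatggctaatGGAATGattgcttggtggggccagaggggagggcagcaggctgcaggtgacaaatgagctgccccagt
Pbx2 peak 3: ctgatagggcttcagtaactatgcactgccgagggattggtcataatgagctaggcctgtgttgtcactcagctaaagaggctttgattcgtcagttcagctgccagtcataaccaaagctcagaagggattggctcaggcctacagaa
Pbx3 peak 4: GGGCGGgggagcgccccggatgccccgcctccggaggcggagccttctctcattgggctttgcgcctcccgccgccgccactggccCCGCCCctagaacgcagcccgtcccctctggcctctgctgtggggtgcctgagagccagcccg
Irx5 peak 1: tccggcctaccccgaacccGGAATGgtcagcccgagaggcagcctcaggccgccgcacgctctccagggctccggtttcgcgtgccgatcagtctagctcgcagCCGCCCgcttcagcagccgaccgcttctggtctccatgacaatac

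The next 3 sequences are shown because they hold a string recognised by a MEIS protein or by a PBX protein together with a HOX protein. They are *Meis2* peak 2 at chr2:115949142-115949290, *Pbx3* peak 1 at chr2:34249607-34249755 and *Meis1* peak 1 at chr11:18885748-18885896. All of them are on the plus strand of GRCm38, and capitals again mark the matches.
Meis2 peak 2: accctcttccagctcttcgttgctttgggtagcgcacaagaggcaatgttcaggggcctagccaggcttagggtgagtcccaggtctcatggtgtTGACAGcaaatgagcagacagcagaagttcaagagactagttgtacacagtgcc
Pbx3 peak 1: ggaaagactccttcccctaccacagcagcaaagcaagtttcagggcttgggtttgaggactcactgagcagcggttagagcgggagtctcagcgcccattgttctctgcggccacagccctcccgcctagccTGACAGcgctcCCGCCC
Meis1 peak 1: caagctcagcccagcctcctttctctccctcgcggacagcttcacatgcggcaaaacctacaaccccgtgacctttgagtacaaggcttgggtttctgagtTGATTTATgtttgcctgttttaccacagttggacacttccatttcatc

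*Meis1*, which encodes a cofactor needed in blood stem cells and in the heart, had 6 peaks over a gene of 139169 bp (chr11:18879817-19018985, minus strand), the most of the 9 genes by this rule. With scores at or above the list median it had 2, against 3 each for *Meis2*, *Pbx2* and *Pbx3*, and within 50 kb of a TSS it shared a count of 6 with *Meis2* and *Pbx2*. The strongest one, peak 6, covered the TSS at the 5′ end of the gene (chr11:19018905-19019053) and had a score of 361, at percentile 70.7 of the list. The other five had scores of 49.5, 54, 102, 191.5 and 166 in coordinate order, from the 3′ end of the gene towards the 5′ end. All of those lay in introns of *Meis1*, and in the principal transcript these were introns 9, 8, 7, 7 and 6 of 11. Scores were therefore highest at the start of the gene and lowest in its 3′ part. Peak 5 (chr11:19008210-19008358), 3644 bp from the nearest *Meis1* TSS, lay 770 bp from the start of the antisense gene *Gm16140*. Peak 1, the weakest, also lay in an exon of the unclassified transcript *Gm37818*. Peaks 3 and 4 were 5911 bp apart, and the distances between the other neighbours ran from 10546 to 44943 bp.

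*Meis2*, a close relative of *Meis1* with roles in cardiac neural crest, had 4 peaks (chr2:115863064-116065839, minus strand). Peak 3 covered the TSS at the 5′ end (chr2:116065702-116065850) and was the strongest, with a score of 519 at percentile 82.6. Peak 4 (chr2:116067091-116067239, score 343.5) followed after 1240 bp. It lay 1252 bp upstream of the nearest GENCODE TSS of *Meis2* and on the TSS of the divergent long non-coding RNA gene *G630016G05Rik*. RefSeq places a first exon of *Meis2* there too. Peak 2 (score 65) was in intron 8 of the gene, 76180 bp from its nearest TSS. Peak 1 (score 205.5) lay 9284 bp from the start of a *Meis2* transcript and beyond the end of the gene. The 2 peaks at the promoter had higher scores than the 2 others.

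*Meis3*, the smallest of the MEIS genes, had 2 peaks at a gene of 11415 bp (chr7:16175090-16186504, plus strand). Peak 2 (chr7:16175170-16175318) covered a TSS and an annotated untranslated region, with a score of 401.5 at percentile 74.3. Peak 1 lay 2672 bp upstream of the nearest TSS, with a score of 218.5 at percentile 55.3. Both peaks were poor in CpG, with observed to expected ratios of 0.115 and 0.0686, the lowest of the 24. In peak 2, 67.8% of the bases were masked as repeats in the reference, also the highest of the 24.

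**Figure D1:**
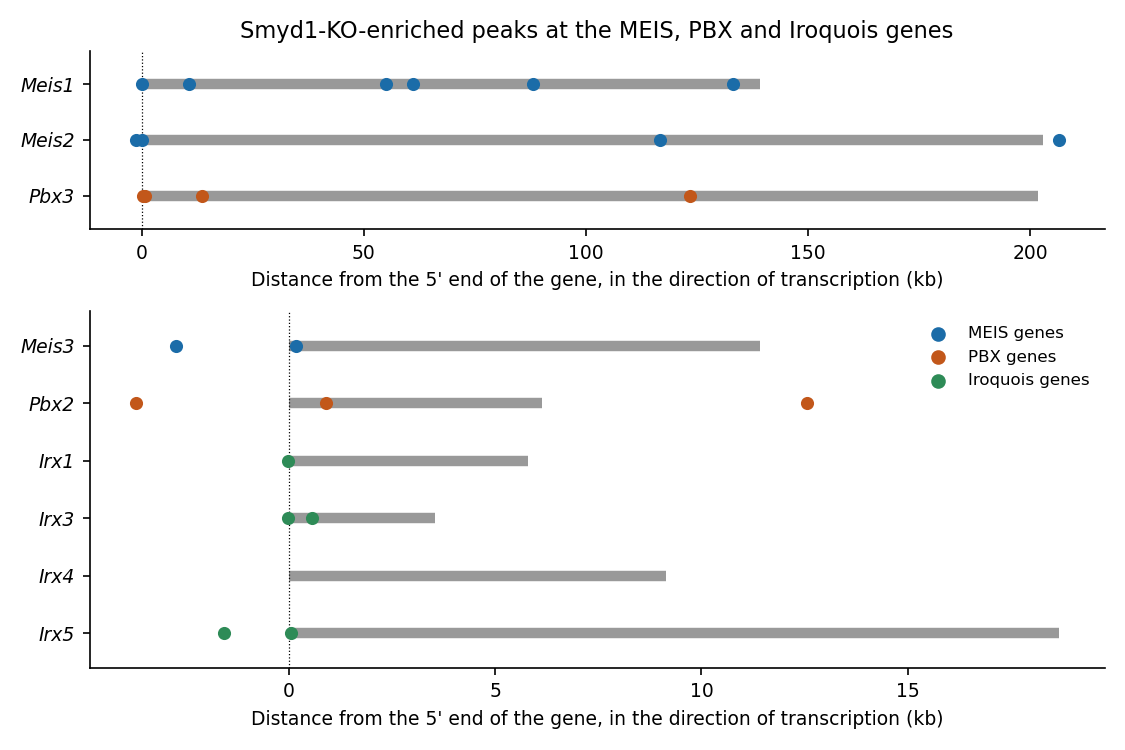
Positions of the 24 *Smyd1-KO*-enriched peaks (points) along the 9 genes (grey bars, drawn to scale), in kb from the 5′ end of each gene in the direction of transcription. The upper panel holds the 3 genes over 100 kb and the lower panel the other six. Peaks sit at the 5′ end of 8 genes and inside the long genes, and *Irx4* has none.

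*Pbx2*, a widely expressed PBX gene in the gene-dense major histocompatibility region, had 3 peaks, and 2 of them lay closer to other genes. Peak 2 (chr17:34592083-34592231) was 32 bp from the TSS of the principal *Pbx2* transcript, with a score of 317.5 at percentile 66.6. Peak 1 (chr17:34587470-34587618, score 664.5) was 3648 bp upstream of *Pbx2* and 429 bp from a TSS of *Notch4*, in an exon of that gene. Peak 3 had the highest score of all 24 peaks, 1107 at percentile 98.1, and was 8291 bp from a *Pbx2* TSS but 61 bp from the TSS of *Rnf5*. The count of 3 for *Pbx2* thus rested on its neighbours, and only peak 2 lay within 3 kb of a start of the gene.

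*Pbx3*, which encodes a PBX protein with a part in heart outflow development, had 4 peaks over 201686 bp (chr2:34171457-34373142, minus strand). Peaks 3 and 4 lay just before the principal start of the gene and were 410 bp apart. Peak 3 (chr2:34372204-34372352) was 160 bp upstream of the principal TSS with a score of 313.5, and peak 4 was 231 bp past the start of a transcript that begins farther upstream, with a score of 657.5 at percentile 89.0. Peaks 1 and 2 were both in intron 2 of the principal transcript, 39097 and 11210 bp from the nearest TSS. Peak 1 had a score of 197.5 and peak 2 (chr2:34359488-34359636) one of 84.5. As at *Meis1* and *Meis2*, the peaks at the start had higher scores than those inside the gene.

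The Iroquois genes had 5 peaks, and every one of them was within 3 kb of a TSS of its gene. *Irx1* had 1 peak (chr13:71963682-71963830), which covered its TSS with a score of 341.5 at percentile 69.0. *Irx3* had 2 peaks 430 bp apart. Peak 2 (chr8:91802016-91802164) covered the TSS at the 5′ end with a score of 396.5. Peak 1 (chr8:91801437-91801585), 330 bp downstream of the nearest TSS and in an annotated untranslated region, had a score of 623.5 at percentile 87.6. Both peaks of *Irx3* also overlapped its antisense gene *Irx3os*, and the peaks cannot be assigned to either start alone.

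*Irx5* had 2 peaks 1465 bp apart. Peak 2 (chr8:92357594-92357742) covered its TSS with a score of 486 at percentile 80.6. Peak 1 had a score of 881.5 at percentile 95.2. It lay 1497 bp upstream of the TSS of *Irx5* and on that of *Crnde*, which is transcribed away from *Irx5*. The scores of the 5 Iroquois peaks ran from 341.5 to 881.5 with a median of 486. The 7 peaks of the PBX genes ran from 84.5 to 1107 with a median of 317.5, and the 12 of the MEIS genes from 49.5 to 519 with a median of 198.5. These ranges overlapped.

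*Irx4*, the ventricular gene of the family, had 0 peaks in either list (chr13:73260479-73269608, plus strand). The nearest *Smyd1-KO*-enriched peak downstream was 29167 bp past its end (chr13:73298775-73298923, score 558), and the nearest one upstream was 281.2 kb away with a score of 82.5. Its promoter was rich in CpG. In the RefSeq promoter window of 300 bp (250 bp before to 50 bp after the start, GRCm38.p6), *Irx4* had a GC content of 70.7% and a CpG observed to expected ratio of 0.828, at percentile 81.5 of 32851 promoters. The ratio was 0.748 for *Irx3*, 0.882 for *Pbx2*, 0.688 for *Meis3*, 0.666 for *Meis2* and 0.589 for *Meis1*, and the median of all promoters was 0.384. *Pbx3*, *Irx1* and *Irx5* were not matched. Of 4859 protein-coding genes with a promoter ratio of 0.8 or above, a class bound chosen after the values were seen, 78.0% had a *Smyd1-KO*-enriched peak no more than 1 kb from a start, and *Irx4* was among those without.

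**Figure D2:**
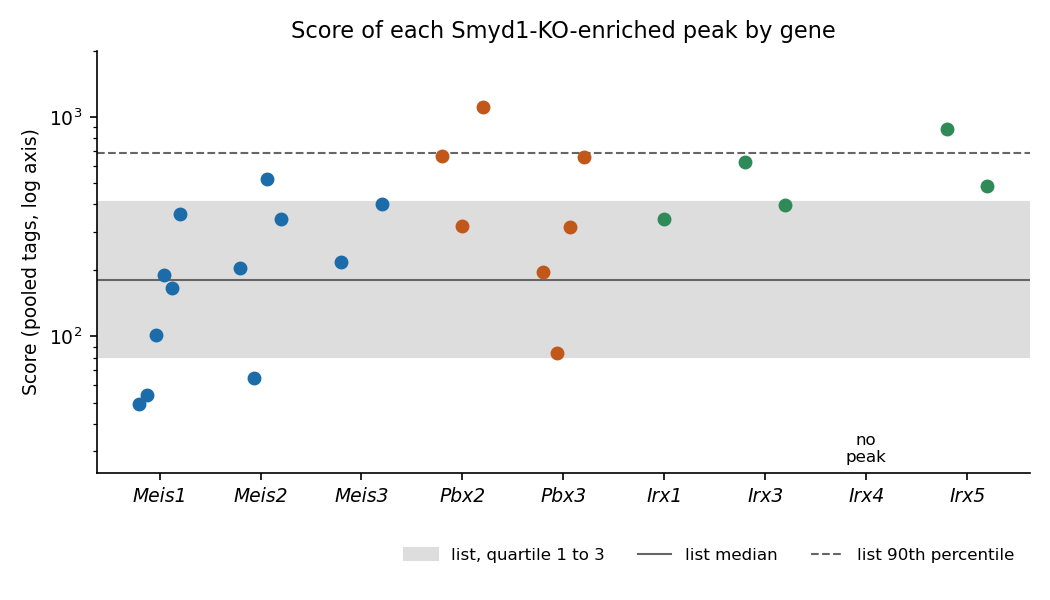
Score (pooled tags, log axis) of each of the 24 peaks, as points by gene, in coordinate order within a gene. The grey band spans the quartiles of the whole list (81 to 410), the line is its median (180.5) and the dashed line its 90th percentile (685). Only *Pbx2* peak 3 and *Irx5* peak 1 lie above the dashed line.

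The share of genes with a peak was read against all protein-coding genes. By the same rule 62.6% of the 21951 protein-coding genes had a *Smyd1-KO*-enriched peak, and 8 of the 9 genes here did (88.9%, exact Clopper-Pearson 95% interval 51.8 to 99.7%, which covers counting error only). This interval contains the background. With scores at or above the list median 8 of the 9 still had a peak, and the background fell to 51.5%, just below the lower bound. In the class under 20 kb the background was 50.8%, and 5 of 6 genes had a peak (83.3%, 35.9 to 99.6%). No gene here fell in the class from 20 to 100 kb, where it was 72.4%. In the class over 100 kb it was 87.8%, and *Meis1*, *Meis2* and *Pbx3* all had peaks. A peak over a TSS was found for 27.8% of protein-coding genes and for 6 of the 9 (66.7%, 29.9 to 92.5%). A peak within 1 kb of a TSS was found for 48.1% and for 8 of the 9 (88.9%, 51.8 to 99.7%). The last 2 backgrounds, for a peak over a TSS and within 1 kb of one, lay just below the lower bounds of their intervals. The 9 genes were chosen with results of these data known, so the intervals do not measure how unusual the families are, and nothing particular to the families is read from them. In the other direction 0.155% of protein-coding genes had a WT-enriched peak. None of the 9 did, and the nearest WT-enriched peak to any of them was 3.2 Mb from *Meis1*.

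The number of peaks per gene followed gene length in part. *Meis1* was at percentile 99.1 of protein-coding genes by number of peaks, and at percentile 92.9 among genes over 100 kb, whose median was 2 peaks. Per 10 kb of the span searched, *Meis1* had 0.402 peaks, at percentile 72.1. *Meis2* and *Pbx3* had 0.184 and 0.189 peaks per 10 kb, at percentiles 51.0 and 51.6. Of the 6 genes under 20 kb, 5 ranked higher on this scale than any of those 3, with *Pbx2* at 1.24 peaks per 10 kb (percentile 98.0), *Irx3* at 0.992 (percentile 95.1), *Irx5* at 0.698 (percentile 89.2) and *Meis3* at 0.69 (percentile 89.1). *Irx1* had 0.412 peaks per 10 kb at percentile 72.9, barely above *Meis1*, and *Irx4*, with 0, ranked below the long genes. Percentiles give the share of genes at or below a value, so that of *Irx4*, 37.4, is the share of protein-coding genes without a peak.

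Placed by distance, 13 of the 24 peaks were within 3 kb of a TSS of their gene (54.2%, 32.8 to 74.4%), against 56.7% of the 25392 pairs of a peak and a protein-coding gene made by the same rule. Within 1 kb there were 10 (41.7%, 22.1 to 63.4%, against 49.9%), and 6 covered a TSS (25% in both). These shares of all pairs lay inside the intervals of the families. Of the 24 peaks, 14 had a TSS of their own gene as the nearest TSS, and 10 were nearer to that of another gene. In 3 of these cases, *Pbx2* peak 3, *Meis2* peak 4 and *Irx5* peak 1, the score was above the list median and the other start was within 61 bp. By annotation of any gene, 8 of the 24 overlapped an untranslated region, 3 a non-coding exon, 10 an intron and 3 intergenic sequence. Neither the split by nearest TSS nor these classes were counted over all pairs, so nothing particular to these genes is read from them.

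Score and distance were related across these peaks. The median score was 396.5 (218.5 to 881.5) for the 13 peaks within 3 kb, 435 (166 to 1107) for the 4 peaks from 3 to 10 kb, and 84.5 (49.5 to 197.5) for the 7 peaks farther away. All pairs of protein-coding genes had medians of 407.5, 235 and 92 in the same classes. The peaks within 3 kb and those beyond 10 kb did not overlap in score. Spearman's rho of score and distance was -0.64 over the 24 peaks and -0.52 over all 25392 pairs, and both are a description only, since peaks of a gene share their neighbourhood and the libraries are pooled. The median over all 24 was 329.5, against 180.5 for the whole list and 295 for all pairs, which like these peaks lie at genes.

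**Figure D3:**
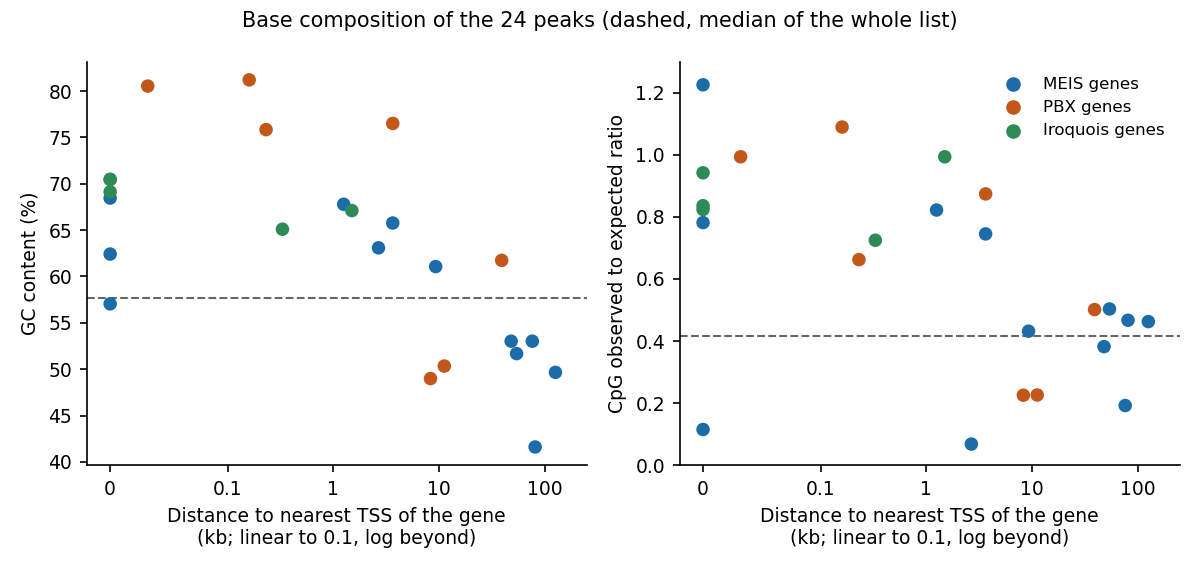
GC content (left, in percent) and CpG observed to expected ratio (right) of each of the 24 peaks against the distance to the nearest TSS of its gene (kb, linear to 0.1 and logarithmic beyond), coloured by family, with the median of the whole list dashed. Of the 13 peaks within 3 kb, 12 lie above the dashed line for GC, and the 7 peaks beyond 10 kb lie at or below 61.7% GC and 0.503 in the CpG ratio.

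Base composition fell with distance class by class, whereas the median score was highest from 3 to 10 kb, a class of 4 peaks. The top scores of that class, 664.5 and 1107, were those of *Pbx2* peaks 1 and 3. These lay 429 bp from a TSS of *Notch4* and 61 bp from one of *Rnf5*. Over all pairs the median score fell class by class too (407.5, 235 and 92). GC content had a median of 68.5% (57.1 to 81.2%) within 3 kb, 63.4% (49.0 to 76.5%) from 3 to 10 kb and 51.7% (41.6 to 61.7%) beyond 10 kb. All pairs of protein-coding genes had medians of 65.8%, 58.4% and 53.0%. The CpG ratio, which is the count of CpG times the length over the product of the C and G counts, had a median of 0.824 (0.0686 to 1.23) within 3 kb, 0.588 (0.226 to 0.874) from 3 to 10 kb and 0.463 (0.193 to 0.503) beyond 10 kb. For all pairs the medians were 0.776, 0.463 and 0.214. The 2 *Meis3* peaks were the only ones within 3 kb with a ratio under 0.2. The highest ratio was that of *Meis2* peak 3 at the start of the gene, 1.23 near the top of the list. The lowest GC content was that of *Meis1* peak 2 in intron 8 (41.6%), at percentile 1.69. In none of the 24 peaks did a 32-base word occur more than once in the assembled genome.

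The Iroquois genes lie in clusters of 3 genes each, with long intergenic stretches that are known to hold distant enhancers, so the stretches between the genes were counted as well. From *Irx1* to *Irx4*, with 10 kb to each side (chr13:71947921-73279608, 1332 kb), there were 14 *Smyd1-KO*-enriched peaks and 0 WT-enriched ones. This was 1.05 peaks per 100 kb, against 0.972 for the genome and a median of 1 in the 120 bins of 1 Mb on that chromosome, with quartiles of 0.5 and 1.3. From *Irx3* to *Irx6* (chr8:91788525-92690956, 902.4 kb) there were 16 peaks and 0 WT-enriched ones, or 1.77 per 100 kb, against a median of 0.8 and quartiles of 0.3 and 1.5 in 129 bins. The density on chromosome 8 was at percentile 81.4 of the bins and that on chromosome 13 at percentile 54.2. With scores at or above the list median alone, the genome had 0.487 peaks per 100 kb, the cluster on chromosome 13 fell below it with 4 peaks (0.3004 per 100 kb), and that on chromosome 8 stayed above it with 7 (0.776).

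**Figure D4:**
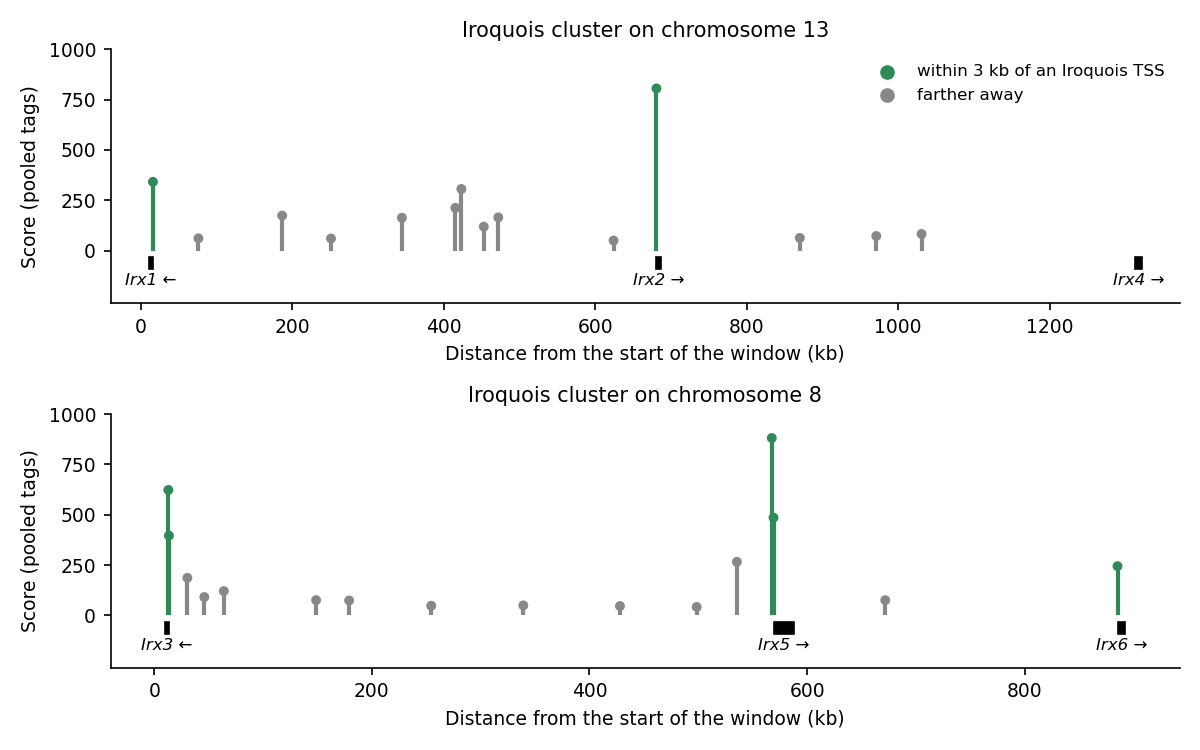
*Smyd1-KO*-enriched peaks in the Iroquois clusters, with the score (pooled tags) of each peak as a stem and the position in kb from the start of the window, and the genes as black boxes with arrows for strand. Stems within 3 kb of an Iroquois TSS are green and reach 245 to 881.5, the grey ones farther away reach 306 at most, and *Irx4* has no peak.

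Most cluster peaks lay between the genes, which take up only a small part of either window. That placement is therefore not read as a trait of the clusters. In the cluster on chromosome 13, 12 of 14 peaks were beyond 3 kb of an Iroquois TSS, at 56.6 to 328.8 kb, and 11 of these were intergenic. Their scores had a median of 101 (50 to 306), and 2 of the 12 reached the list median. The other two peaks were those at *Irx1* (341.5) and *Irx2* (805.5). The strongest distant peak (chr13:72371048-72371196, score 306) lay 257.6 kb from *Irx2* in an exon of the unclassified transcript *Gm47836*. In the 281.2 kb before *Irx4* there was no *Smyd1-KO*-enriched peak. In the cluster on chromosome 8, 11 of 16 peaks were beyond 3 kb, at 16.9 to 241 kb. Their median score was 76 (42.5 to 266.5), and 2 of the 11 reached the list median. One was 16.9 kb upstream of *Irx3* (chr8:91818931-91819079, score 187), and the other was 33.7 kb upstream of *Irx5* (chr8:92323820-92323968, score 266.5). The CpG ratio had a median of 0.138 in the 12 distant peaks on chromosome 13 and 0.223 in the 11 on chromosome 8, against 0.757 in the 2 peaks within 3 kb of an Iroquois TSS on chromosome 13 and 0.824 in the 5 on chromosome 8. *Fto*, the neighbour whose introns are known to contact *Irx3*, had 7 peaks over 354.9 kb by the same rule. The strongest of them (score 1227) lay 50 bp from the *Fto* TSS and was shared with *Rpgrip1l*, and the other six had scores of 78.5 to 179.

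Strings of bound factors were searched in the 24 peaks on both strands, and their share is given beside that in all 25745 peaks of the list, which have the same length. The MEIS string TGACAG was in 2 of 24 peaks (8.33%, 1.03 to 27.0%), against 15% of the list. These were *Meis2* peak 2, at base 96, and *Pbx3* peak 1, at base 133, both inside introns. The string TGATTNAT, bound by PBX with HOX proteins, was in 1 peak (4.17%, 0.105 to 21.1%), against 1.03%. That was *Meis1* peak 1, at base 102, in intron 9. The Iroquois string ACANNTGT was in 0 of 24, which allows a share of up to 14.2% (the same exact interval), against 2.72%. The strings for these families thus occurred in 3 of the 24 peaks, all among the 11 that lay beyond 3 kb of a TSS of their gene. The share of the list with any of these strings was not counted, nor was it split by distance. Nothing particular to the families is therefore read from this count.

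Among the strings of other factors, GGGCGG, bound by SP and KLF proteins at CpG-rich promoters, was in 10 peaks (41.7%, 22.1 to 63.4%), against 29.1%. Of these 10, 7 were within 3 kb of a TSS of their gene, as were 13 of all 24 peaks. The 24 peaks lie at genes and had a median GC content of 64.1%, against 57.7% for the list. The strings were not counted over all pairs of a peak and a gene. In *Irx3* peak 2 it occurred at 4 places and in *Irx1* peak 1 at 3. The CTCF string CNAGGNGGC was in 3 peaks (12.5%, against 8.1%), at *Meis1*, *Pbx2* and *Irx3*. The TEAD string CATTCC was also in 3 (12.5%, against 10.6%), at *Meis3*, *Pbx3* and *Irx5*. The GATA string AGATAA was in 1 (4.17%, against 8.87%), *Meis1* peak 2. The NKX2-5 string TNAAGTG was in 1 (4.17%, against 6.76%), *Meis1* peak 6 at the TSS. The T-box string AGGTGTGA and the MEF2 string TATTTNTA were in 0 of 24, against 0.435% and 2.21%. Matches of different strings did not overlap in any peak. Every list share lay inside the interval of the 24 peaks, so no difference was detectable with this number of peaks. A match is a run of letters and not a bound site.

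**Figure D5:**
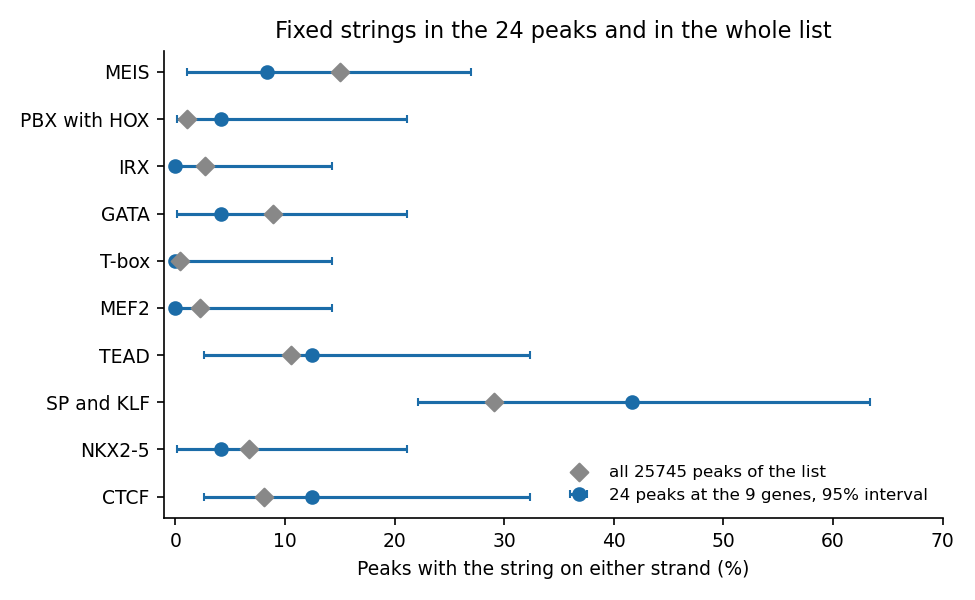
Share of peaks (percent, horizontal axis) that hold each string on either strand. Circles with bars are the 24 peaks with exact Clopper-Pearson 95% intervals, and diamonds are all 25745 peaks of the list. Every diamond lies within its bar.

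Other TALE homeobox genes, *Pbx4*, *Irx2*, *Irx6*, *Pknox1*, *Pknox2*, *Tgif1*, *Tgif2* and *Mkx*, were counted by the same rule. All 8 had a *Smyd1-KO*-enriched peak, 15 in all, beside the 62.6% of all protein-coding genes, and 0 of the 8 had a WT-enriched one, beside 0.155%. The long gene *Pknox2* had 8 peaks, more than *Meis1*, and the other seven had 1 each. A peak within 1 kb of a TSS was found at 6 of the 8, beside 48.1% of all protein-coding genes, and the exceptions were *Pbx4* and *Mkx*. Of these 8 genes and the 9 described above, 17 in all, *Irx4* was the only one without a peak.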

How the data were processed

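ATAC-seq of WT and *Smyd1-KO* hearts was used, with 2 libraries per genotype. The authors aligned reads to mm10 with BWA-MEM, called peaks with HOMER (version 4.10.3) on the combined libraries of a genotype and kept peaks with at least a 2-fold difference in tags. The deposited value of each 149-bp peak is a signal, the pooled tags counted by the authors in the genotype in which the peak was called. Some values are not whole, so a scaling is included, and scores of the lists were not compared. How duplicates and the Tn5 offset were treated is not given in the sources used here, and either could change which peaks are listed. Starts in the lists were read as counting from 0. If they count from 1, each printed start and the positions within sequences shift by 1 base.

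Peaks were assigned to GENCODE M21 genes in Python (version 3.11.15) with pandas (version 2.3.3), and intervals were computed with scipy (version 1.17.1). The assignment was tested on simulated data. Distances run from the nearer edge of a peak. All 9 genes are named, with every peak of genes with 5 peaks or fewer and, of *Meis1*, the strongest, the one nearest a TSS and the scores of all. The genes, lists and strings were chosen with earlier results of these data known, so no test was run. Alternatives were a score minimum, other windows and transcripts, merged peaks, unique sequence and peak midpoints. An item of the lists is not reported here.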

Additional observations from a re-analysis of the deposited data

How the results depend on the processing

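No paired analysis was possible because the lists pool both libraries of a genotype, and for the same reason no library could be left out. Among the alternatives, 42 of 42 values for the 9 genes and their peaks as a group stayed within 1.5 times the reported count or within its interval, as did 4 of 6 for the Iroquois clusters and 1 of 6 for the share of all protein-coding genes. The intervals are wide for 9 genes and narrow for all genes (61.9 to 63.2%), so these counts do not compare stability. Within 50 kb the 9 genes had 36 peaks instead of 24, at the limit of 1.5 times. With scores at or above the list median, 72.2% of their peaks lay within 3 kb of a TSS, against 54.2%. The 9 genes kept 0 WT-enriched peaks under each alternative run. The share of protein-coding genes with a *Smyd1-KO*-enriched peak moved from 62.6% to 51.5% with scores at or above the list median, just below the interval of the 9 genes, of which 8 kept a peak. It moved to 61.7% with TSSs of protein-coding transcripts, 56.6% with a 3 kb window, 79.1% with a 50 kb window and 60.8% without peaks of repeated sequence. With scores at or above the list median the Iroquois clusters held 0.3004 peaks per 100 kb on chromosome 13 and 0.776 on chromosome 8, against 0.487 for the genome. For single genes, 56 of 63 counts stayed within 1.5 times. With a 50 kb window *Irx4* had 2 peaks, *Meis3* and *Irx3* had 4 each, and *Pbx2* and *Meis2* had 6, level with *Meis1*. With a 3 kb window *Pbx2* had 1 peak. With scores at or above the list median *Meis1* had 2, fewer than *Meis2*, *Pbx2* and *Pbx3*, and with neighbours within 1 kb merged *Irx3* had 1. Absence of a peak at *Irx4* means absence from the differential lists and not closed chromatin. The tags behind each list, beyond the stated 100000000 reads per sample, and the spread between hearts are unknown, and 24 peaks give wide intervals.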
